A study of Mus musculus with 15 samples.

Results

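Transcripts of cell-to-cell junctions, 8 of the 55291 genes in each deposited table, were followed through bulk RNA-seq of mouse pancreatic ductal adenocarcinoma (PDAC). They encode the tight junction scaffolds Tjp1 and Tjp3, the tight junction membrane proteins Ocln, Cldn3, Cldn4 and Cldn7, and the gap junction proteins Gjb1 and Gjb2. The genes were chosen by name, with their values in cultured cells known, because Tjp3 and Gjb1 are among the genes with the largest falls there. Their culture values against control cells are therefore given as a description without a test.

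The cells were HY19636, 1 primary line isolated from a pancreatic tumor of a C57BL/6 mouse in which Ptf1a-Cre acts on engineered alleles, a floxed p53 allele among them, in the pancreatic lineage. All 5 groups derive from this line, and the labels give the same genotype, p53 mut included, for all of them. In culture, 3 samples were treated with 25 µM DON for 24 h, 3 were kept without glutamine (Gln) for 24 h and 3 were controls (CNT). DON (6-diazo-5-oxo-L-norleucine) is a Gln analog that binds covalently to enzymes that use Gln. In vivo, HY19636 cells were grown as orthotopic tumors in the pancreas of female B6J mice aged 8 to 10 weeks, an immunocompetent strain, and 3 tumors came from mice given vehicle (VEH) and 3 from mice given DRP-104, a pro-drug of DON. The tumors sequenced, 3 per group, were picked at random. The methods describe DRP-104 at 3 mg per kg, given daily for 2 cycles of 5 days on and 2 days off. Nothing says that the culture samples were separate cultures, so p-values there measure the spread between these samples, which may be technical.

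Tight junctions seal the space between neighboring epithelial cells near their apical border. Claudins and occludin form the strands in the membrane, and the Tjp (ZO) scaffolds tie the strands to actin. Gap junctions are channels built of connexins that let small molecules and ions pass between adjacent cells, and in the exocrine pancreas Gjb1 (connexin 32) and Gjb2 (connexin 26) join acinar cells. Pancreatic ducts carry tight junctions at their cell borders, and loss of epithelial junctions is a known feature of the epithelial to mesenchymal shift.

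The libraries held 25.2 to 48.2 M reads in culture and 16.3 to 20.7 M reads in tumors. The 8 epithelial markers (Epcam, Krt7, Krt8, Krt18, Krt19, Cdh1, Muc1 and Spint1) were detected in all 15 libraries. Their summed level was 12945 to 15395 RPM (reads scaled to 1 M reads in a library) in control cells, 4021 to 4251 RPM after DON and 5438 to 6038 RPM without Gln. In tumors it was 6628 to 8707 RPM with vehicle and 6854 to 10589 RPM with DRP-104. The 7 islet markers were at 0 reads in all 9 culture libraries, where fibroblast markers summed to at most 37.9 RPM. The tumors also hold host cells, and their fibroblast markers summed to 2092 to 4361 RPM with vehicle and 1053 to 1683 RPM with DRP-104. In bulk tumor RNA, fewer cells of a type and less RNA per cell cannot be told apart. DRP-104 tumor 3 stood apart from the others, with T cell markers summing to 72.0 RPM against at most 5.46 RPM in any other tumor. Vehicle tumor 3 had an acinar marker sum of 169 RPM, against 9.59 to 55.4 RPM in the others, and DRP-104 tumor 1 had the highest level of all 7 islet markers. Endothelial markers summed to 140 to 166 RPM with vehicle and to 94.3 to 122 RPM with DRP-104.

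The gene models of the 8 members, in GRCm38 coordinates, lie on 7 chromosomes. Tjp1 is at chr7:65296165-65371239, Tjp3 at chr10:81273207-81291267 and Ocln at chr13:100496507-100552718, all on the minus strand. Cldn4 (chr5:134945126-134946934, minus strand) and Cldn3 (chr5:134986214-134987472, plus strand) are neighbors, 39279 bases apart. Cldn7 is at chr11:69964779-69967885 on the plus strand, Gjb1 at chrX:101376378-101385629 on the plus strand and Gjb2 at chr14:57098600-57104702 on the minus strand.

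The sequences before the start sites are shown because 7 of the 8 members hold a short motif in at least 1 window, and Tjp1 does not. A link between this motif and the changes in culture was not tested. RefSeq (GRCm38.p6) promoter windows, 250 bases before to 50 bases after each start, were matched by symbol for all 8 members and gave 14 windows. The letters CACCTG, read on both strands (CAGGTG on the other), are the E-box core to which Snail and Zeb proteins are known to bind. They occurred in 9 of the 14 windows (64.3%) and in 20.2% of all 32851 windows. By gene, 7 of the 8 members (Tjp3, Ocln, Cldn3, Cldn4, Cldn7, Gjb1 and Gjb2) had them in at least 1 window, against 22.6% of 27025 genes. Within the 250 bases before a start 6 members had them, without Cldn3, against 19.4% of genes. Only 1 of 4 Gjb1 windows and 1 of 2 Cldn7 windows held them. The members had more windows per gene (14 for 8) than all genes (32851 for 27025), which favors a match in the comparison by gene. The windows of a gene can overlap, and both Ocln windows hold the same E-box. Below, 250 bases before a start are printed 5′ to 3′ on the strand of the gene, with E-box letters in capitals and no part inside an exon of the gene's GENCODE models.
Tjp1, chr7:65371245-65371494, minus strand: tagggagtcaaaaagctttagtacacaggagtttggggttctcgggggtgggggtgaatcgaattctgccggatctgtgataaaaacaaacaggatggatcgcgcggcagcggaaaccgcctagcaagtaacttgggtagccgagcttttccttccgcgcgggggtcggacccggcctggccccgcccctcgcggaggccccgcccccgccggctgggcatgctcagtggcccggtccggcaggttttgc
Tjp3, chr10:81291582-81291831, minus strand: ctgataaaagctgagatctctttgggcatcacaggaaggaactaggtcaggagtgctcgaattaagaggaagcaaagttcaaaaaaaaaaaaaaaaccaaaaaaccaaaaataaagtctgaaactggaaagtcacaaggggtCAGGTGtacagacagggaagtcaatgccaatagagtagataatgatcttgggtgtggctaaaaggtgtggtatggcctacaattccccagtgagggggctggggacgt
Cldn4, chr5:134946935-134947184, minus strand: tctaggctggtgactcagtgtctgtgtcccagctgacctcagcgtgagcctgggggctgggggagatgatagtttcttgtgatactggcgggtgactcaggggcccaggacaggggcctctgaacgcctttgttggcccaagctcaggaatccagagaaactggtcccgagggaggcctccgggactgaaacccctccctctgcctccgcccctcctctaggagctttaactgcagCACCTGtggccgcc
Gjb1, chrX:101383482-101383731, plus strand: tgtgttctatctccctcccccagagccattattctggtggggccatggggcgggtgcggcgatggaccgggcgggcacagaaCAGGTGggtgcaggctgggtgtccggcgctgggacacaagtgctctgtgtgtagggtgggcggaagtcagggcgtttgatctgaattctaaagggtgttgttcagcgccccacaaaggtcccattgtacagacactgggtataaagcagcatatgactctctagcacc
Gjb2, chr14:57104703-57104952, minus strand: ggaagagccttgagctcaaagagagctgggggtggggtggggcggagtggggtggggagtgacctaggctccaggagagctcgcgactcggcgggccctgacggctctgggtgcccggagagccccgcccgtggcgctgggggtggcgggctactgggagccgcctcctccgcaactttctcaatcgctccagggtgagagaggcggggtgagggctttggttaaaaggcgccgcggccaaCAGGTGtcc

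The E-box begins 108 bases before the start in the Tjp3 window, 14 in Cldn4, 168 in Gjb1 and 9 in Gjb2. The Gjb1 sequence is the fourth of 4 RefSeq starts, and neither it nor the Tjp1 start opens a transcript of the GENCODE annotation. The other 4 motifs were searched on both strands in the same windows. The GC box GGGCGG was in 8 of 14 windows (57.1%, against 35.7% of all windows) and also in 7 of 8 members (38.2% of all genes), Tjp1 included. The AP-1 motif TGANTCA was in the Cldn4 window alone (7.81% of all windows), and the C/EBP-ATF element TGATGNAA in 1 Tjp3 window (3.97%). The Grainyhead-like motif AACCGGTT was in none of the 14 (0.146%). The motifs were chosen after the members' values were known, and a match is a description of letters and not evidence that a protein binds.

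Junction transcripts in control cells were set first as levels per length, in reads per kilobase and 1 M reads (RPKM), since longer genes collect more reads. Tjp1, the ubiquitous ZO-1 scaffold, had the highest level, 33.3 ± 4.68 RPKM (SD, n = 3). Cldn7, a claudin of ducts and other simple epithelia, followed with 8.16 ± 0.669 RPKM. Ocln, at 4.47 ± 0.0764 RPKM, and Gjb1, at 4.45 ± 1.02 RPKM, did not differ beyond their spread. Tjp3, the epithelial ZO-3 scaffold, was at 2.20 ± 0.590 RPKM. Cldn4, at 1.00 ± 0.204 RPKM, and Gjb2, at 0.913 ± 0.194 RPKM, again did not differ beyond their spread. Cldn3 was the lowest, at 0.220 ± 0.116 RPKM, or 26 reads in the 3 control libraries together. Tjp1 made up 60.9% of the summed mean level of the 8 genes in control cells, 90.0% after DON and 87.6% without Gln.

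**Figure D1:**
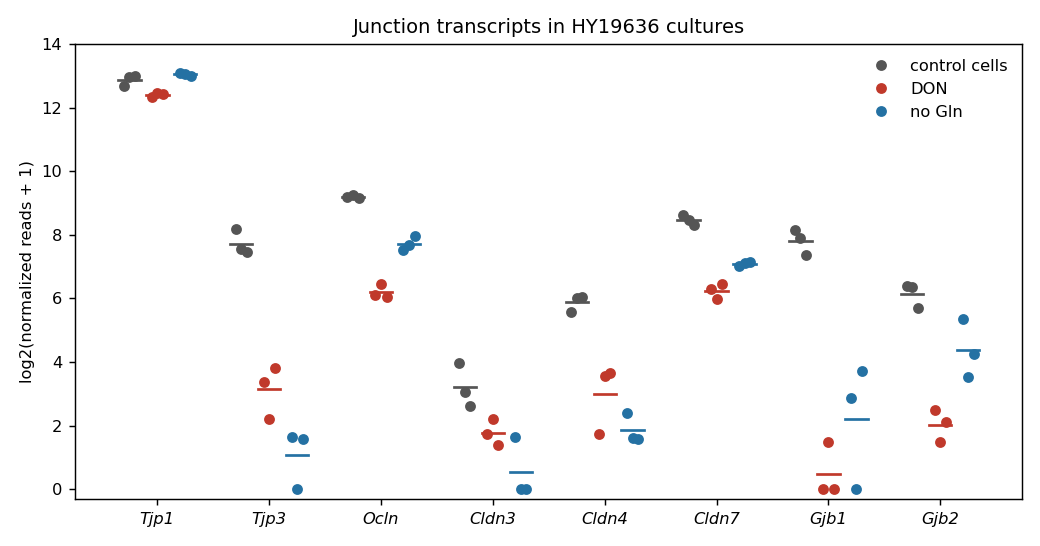
Expression of the 8 junction genes in 9 HY19636 culture libraries, as log2(normalized reads + 1) with the 9 libraries scaled together. Each point is a library, lines are means of 3, and colors give control cells, DON and no Gln. Gjb1 was at 0 reads in 2 of 3 DON libraries, and Tjp1 was the gene with the smallest differences.

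DON-treated cells had lower values than control cells for all 8 members, without overlap between the 3 DON and the 3 control libraries. Values are normalized counts, in which the authors scaled each library by its DESeq2 size factor. Over all 13556 genes tested, 36.6% were lower without overlap and 34.7% were called lower at an adjusted p under 0.05 by limma. These comparisons were used to choose the genes, so nothing is read from the members' count. Of the 8, 7 passed the filter of a mean of at least 10, of which Tjp3, Cldn4, Gjb1 and Gjb2 passed through the control libraries alone.

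Among the scaffolds, Tjp1 was at 5207, 5768 and 5606 normalized counts in the DON libraries and at 6786, 8216 and 8257 in the controls. The groups lay close together, and the difference on the log2(value + 1) scale was -0.48 (SE 0.0971). Tjp3 was at 9.55, 3.69 and 13.4 after DON and at 297, 190 and 177 in the controls. Every DON library was far under every control library, and the log2 difference was -4.60 (SE 0.402), which placed Tjp3 at rank 56 from the lowest of 13556 genes.

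Among the strand proteins, Ocln, which joins the claudins in the strand, was at 69.2, 88.7 and 66.3 normalized counts after DON and at 606, 619 and 575 in controls. Its libraries were tight within each group, with a log2 difference of -3.00 (SE 0.168). Cldn7 was at 80.0, 63.7 and 87.3 after DON and at 406, 358 and 320 in controls, a log2 difference of -2.22 (SE 0.188). Cldn7 and Ocln had over 60 normalized counts in every DON library and were the members, beside Tjp1, that stayed well above the counting limit.

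Cldn4, a claudin often raised in pancreatic cancer, was at 2.39, 11.1 and 11.8 normalized counts after DON and at 47.8, 64.9 and 66.3 in controls. DON library 1 was the lowest of the 3, and the log2 difference was -2.90 (SE 0.512). Cldn3 was at 2.39, 3.69 and 1.68 after DON and at 15.1, 7.49 and 5.20 in controls, under the filter in both groups. Its control to DON ratio was 3.58, with an exact 95% interval of 1.11 to 15.1 from 13 and 4 read pairs. Read pairs were used because low counts in culture were mostly even, as when both mates of a pair are counted, and such intervals cover counting error only.

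Both connexins were close to 0 in the DON libraries. Gjb1 was at 0, 1.85 and 0 normalized counts after DON, 2 reads in all, and at 293, 245 and 168 in controls. The control to DON ratio was 382, with an exact 95% interval of 68.0 to 15117 from 344 pairs and 1 pair. The fitted log2 difference of -7.34 (SE 0.509) was the second lowest of 13556 genes, but its size depends on the pseudocount. Gjb2 was at 4.77, 1.85 and 3.36 after DON and at 85.5, 82.4 and 52.0 in controls, a log2 difference of -4.13 (SE 0.465) and rank 103 from the lowest.

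Without Gln, 7 members were lower than in control cells without overlap and 1, Tjp1, was higher without overlap. Of 13390 genes tested, 37.2% were lower and 36.4% higher without overlap, and again nothing is read from the members' count. The control libraries are the same 3 as for DON, so both comparisons share them. Again 7 members passed the filter, of which Tjp3, Cldn4 and Gjb1 passed through the control libraries alone.

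Tjp1 was at 8601, 8465 and 8002 normalized counts without Gln and at 6395, 7761 and 7964 in controls. The nearest libraries were 8002 and 7964, and the log2 difference of 0.19 had a 95% interval of -0.018 to 0.39. Tjp3 was at 2.09, 0 and 2.00 without Gln, 4 reads in all, and at 280, 179 and 170 in controls. This was the fourth lowest of 13390 log2 differences, at -6.61 (SE 0.491), and the ratio of control to Gln-free cells was 154, with an exact 95% interval of 42.3 to 1276 from read pairs.

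Ocln was at 181, 200 and 248 normalized counts without Gln and at 571, 585 and 554 in controls, a log2 difference of -1.45 (SE 0.143). Cldn7 was at 126, 137 and 140 without Gln and at 383, 339 and 309 in controls, a log2 difference of -1.34 (SE 0.152). Both lay between the DON and the control libraries. Cldn4 was at 4.18, 2.06 and 2.00 without Gln and at 45.0, 61.3 and 63.9 in controls, a log2 difference of -3.98 (SE 0.465). Cldn3 was at 2.09, 0 and 0 without Gln, 2 reads in all, and at 14.2, 7.08 and 5.01 in controls. Its control to Gln-free ratio was 12.6, with an exact 95% interval of 1.89 to 535 from read pairs.

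Gjb1 was at 6.27, 0 and 12.0 normalized counts without Gln and at 276, 231 and 162 in controls. The Gln-free libraries varied among themselves, from 0 reads to several, and the log2 difference was -5.59 (SE 0.713), rank 17 from the lowest. Gjb2 was at 39.7, 10.3 and 18.0 without Gln and at 80.6, 77.9 and 50.1 in controls. Its highest Gln-free library lay close to its lowest control, and the log2 difference was -1.74 (SE 0.430). The size factors matter little except for Tjp1. As RPM, the median of all genes shifted by 0.14 (DON) and 0.11 (no Gln) on the log2 scale, and Tjp1 differed from controls by -0.35 and 0.28, with the same direction in both.

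**Figure D2:**
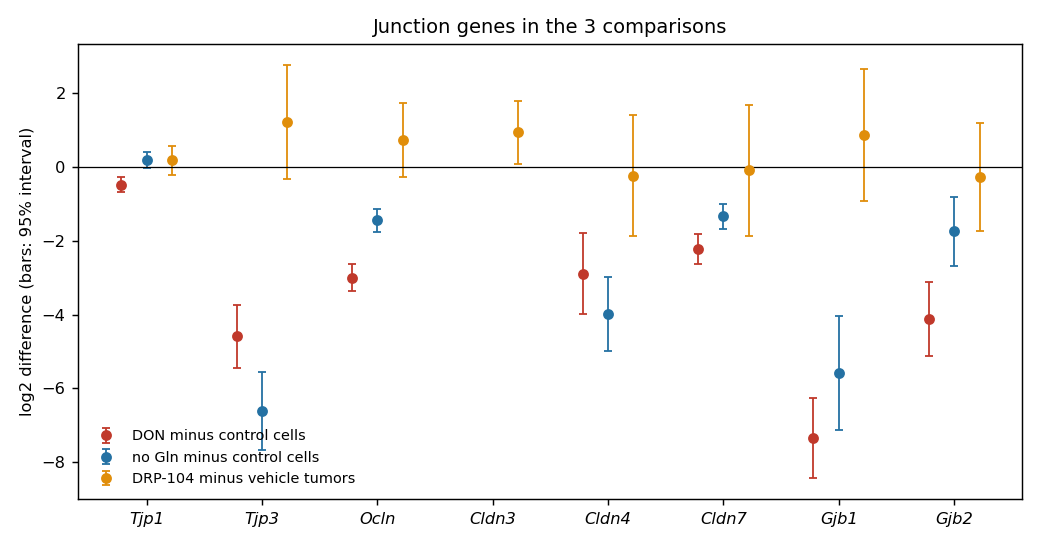
The log2 difference of each junction gene between treated and control samples in the 3 comparisons, on the log2(value + 1) scale. Points are limma estimates from 3 against 3 libraries and bars are 95% intervals, and Cldn3 is drawn for tumors alone because it was under the filter in culture. The tumor intervals of 7 genes cross 0, while the culture estimates of Tjp3 and Gjb1 lie at or below -4.60.

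Whether DON and Gln withdrawal left the junction genes at the same level was tested directly, with the 9 culture libraries scaled together. The libraries are those in which the genes were chosen, so the choice is not independent of this contrast, although the contrast itself was not used. Of 13514 genes, 63.3% were called in this contrast, 32.3% lower and 31.0% higher after DON, and 5 of the 7 members that passed the filter were called. Tjp3, Cldn4 and Gjb1 had means under 10 normalized counts after both treatments and passed the filter through the control libraries, and Gjb2 had a mean of 3.27 after DON and 22.9 without Gln, so nothing is read from this count.

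Ocln, Cldn7 and Tjp1 were lower after DON than without Gln, with no overlap between the groups, as was the case for 36.4% of all genes (35.3% did not overlap in the other direction). Ocln differed by -1.52 on the log2 scale (SE 0.166, limma adjusted p = 1.14e-06), from 65.2 to 87.4 normalized counts after DON and from 183 to 251 without Gln. Cldn7 differed by -0.85 (SE 0.174, limma adjusted p = 0.000535), with 62.8 to 85.8 after DON and 128 to 142 without Gln. Tjp1 differed by -0.64 (SE 0.0861, limma adjusted p = 1.04e-05), with 5112 to 5685 after DON and 8096 to 8699 without Gln.

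The low members are given as a description, with no p. Gjb2 was at 1.82 to 4.69 normalized counts after DON and at 10.4 to 40.1 without Gln, 10 and 66 reads, a log2 difference of -2.35 (95% interval -3.41 to -1.28). Tjp3 was at 3.64 to 13.2 after DON and at 0 to 2.11 without Gln, a log2 difference of 2.06 (95% interval 0.87 to 3.25). These are 28 and 4 reads in 3 libraries each, against 660 in the controls, and Tjp3 was chosen for its fall in these libraries. For Cldn4 the difference was 1.12 (95% interval -0.11 to 2.35), and for Gjb1, also chosen for its fall, it was -1.70 (95% interval -3.39 to -0.011). Limma called neither, while edgeR (1.62 and -3.05) and DESeq2 (1.63 and -3.30) on recovered reads called both. Limma also called Cldn4 without DON library 1 (1.74), and Gjb1 without DON library 2 (-2.20) or without Gln-free library 2 (-2.80). These calls rest on 28 reads after DON and 8 without Gln for Cldn4, and on 2 and 18 for Gjb1. Both genes passed the filter through the control libraries, so nothing is read from the calls. Cldn3 had 8 reads after DON and 2 without Gln and was not tested.

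In tumors, none of the 8 junction genes was called between DRP-104 and vehicle. This comparison was not used to choose them, and all 8 passed the filter. None of 15454 genes (0.0%) was called by limma, with 775 at an unadjusted p under 0.05, 0 called by edgeR and 59 by DESeq2, none of them a member. The groups did not overlap for 1 member, Cldn3, and for 4.83% of all genes in that direction. The values of single tumors spread widely, and 95% intervals of the difference reached from -1.88 to 2.77 over the members.

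For Cldn3, the 3 tumors given DRP-104 were at 367, 472 and 325 normalized counts, and those given vehicle at 111, 316 and 227. Every DRP-104 tumor was above every vehicle tumor, by 0.94 on the log2 scale (SE 0.375, 95% interval 0.073 to 1.80), and the call was not made (limma adjusted p = 0.916). The difference was 0.51 without vehicle tumor 1 and 1.27 without vehicle tumor 2. Cldn4, its genomic neighbor, was at 527, 731 and 199 with DRP-104 and at 163, 1045 and 739 with vehicle. The groups overlapped, the difference was -0.24 (95% interval -1.88 to 1.40, limma adjusted p = 0.980), and it turned to 0.31 without DRP-104 tumor 3, to 0.29 without vehicle tumor 2 and to 0.043 without vehicle tumor 3. Cldn7 was at 879, 1154 and 124 with DRP-104 and at 326, 808 and 580 with vehicle. DRP-104 tumor 3 was the lowest of all, and the difference moved from -0.094 (95% interval -1.87 to 1.68, limma adjusted p = 0.992) to 0.91 without it and to 0.20 without vehicle tumor 2.

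Tjp3 was at 292, 332 and 1695 normalized counts with DRP-104 and at 397, 241 and 134 with vehicle. DRP-104 tumor 3 alone was above the highest vehicle tumor, and the difference of 1.22 (95% interval -0.32 to 2.77, limma adjusted p = 0.916) became 0.41 without it. Gjb1 was at 132, 119 and 603 with DRP-104 and at 199, 194 and 40.4 with vehicle. The same tumor was again the highest, and the difference of 0.86 (95% interval -0.93 to 2.64, limma adjusted p = 0.925) became 0.10 without it and 0.10 without vehicle tumor 3. Ocln was at 273, 533 and 967 with DRP-104 and at 326, 417 and 224 with vehicle, and its difference of 0.73 (95% interval -0.28 to 1.74, limma adjusted p = 0.916) became 0.29 without DRP-104 tumor 3. In that tumor, 6 of 8 epithelial and all 7 T cell markers were at their highest of the 6 tumors, with an epithelial sum of 10589 RPM. Vehicle tumor 3, with the lowest Gjb1, was the tumor with the highest acinar sum. The part of other cell types in the junction values was not tested.

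Tjp1 was at 3356, 4404 and 3604 normalized counts with DRP-104 and at 3372, 3862 and 2807 with vehicle. Of the 8 genes it had the smallest SE in tumors (0.172), and its difference of 0.18 had a 95% interval of -0.21 to 0.58 (limma adjusted p = 0.925). Gjb2 was at 20.3, 16.2 and 20.6 with DRP-104 and at 35.8, 34.3 and 9.63 with vehicle, and the DRP-104 tumors lay inside the range of the vehicle tumors. Its difference was -0.27 (95% interval -1.73 to 1.19, limma adjusted p = 0.971).

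**Figure D3:**
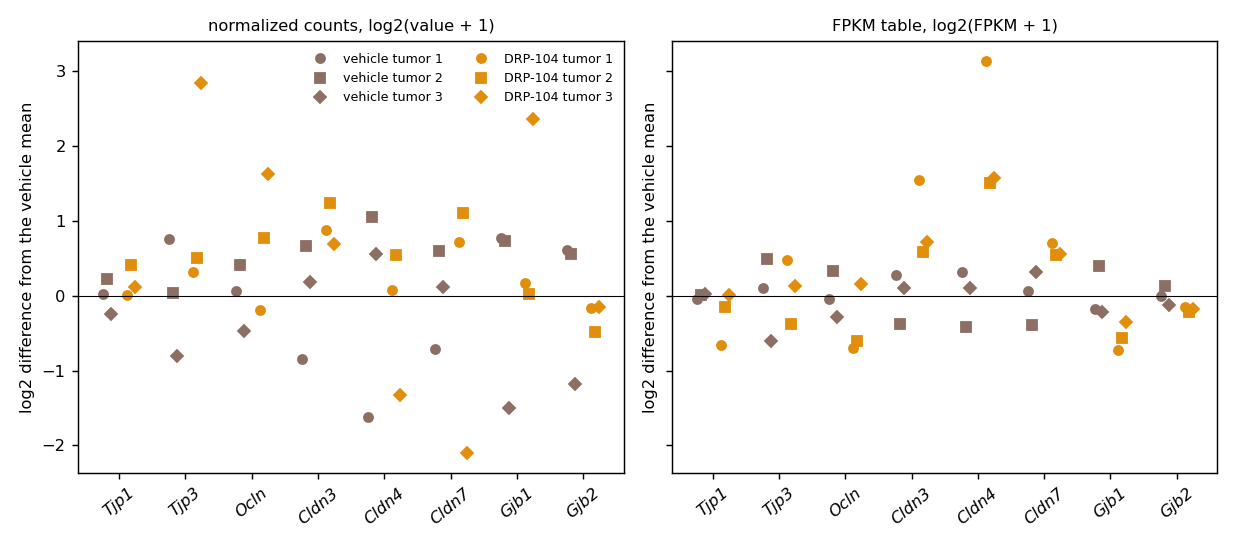
Junction genes in single tumors as log2 differences from the vehicle mean, on the left from normalized counts and on the right from the deposited FPKM table. Each point is a tumor, brown for vehicle and orange for DRP-104, and the tumor numbers of the 2 panels do not refer to the same tumors. On the left DRP-104 tumor 3 is highest for Tjp3, Ocln and Gjb1 and lowest for Cldn7, and on the right all 3 DRP-104 columns are above vehicle for Cldn3, Cldn4 and Cldn7.

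A second tumor table, in fragments per kilobase and 1 M fragments (FPKM), has 3 columns of each tumor group that could not be matched to the tumors above. In it the 3 claudins were higher with DRP-104 without overlap. Cldn4 was at 37.1 to 117 FPKM with DRP-104 and at 9.06 to 15.8 FPKM with vehicle, a difference of 2.07 on the log2(FPKM + 1) scale (SE 0.439, limma adjusted p = 0.363). Cldn3 was at 13.9 to 28.0 against 6.64 to 11.1 FPKM (0.95, limma adjusted p = 0.596), and Cldn7 at 28.3 to 31.8 against 14.3 to 24.1 FPKM (0.60, limma adjusted p = 0.611). Tjp3 differed by 0.078 in this table, against 1.22 in the other. Both connexins were lower without overlap, Gjb1 by -0.55 (limma adjusted p = 0.629) and Gjb2 by -0.18 (limma adjusted p = 0.640). None of 14183 genes (0.0%) was called, and 19.3% did not overlap between the groups (9.6% higher and 9.65% lower with DRP-104), against 5 of 8 members, 3 higher and 2 lower. Cldn3 was higher without overlap in both tumor tables and called in neither (limma adjusted p = 0.916 and 0.596). The share of all genes that did so in both was not counted. Whether the 2 tables hold the same tumors is not known, so this is not read as a repeat. Epithelial markers summed to 2985 to 4309 FPKM in the DRP-104 columns and to 4021 to 4441 FPKM in the vehicle columns. Acinar markers summed to 678 to 4061 FPKM in the DRP-104 columns and to 191 to 1131 FPKM in the vehicle columns, and islet markers to 326 to 1214 against 14.3 to 233 FPKM. Fibroblast markers had a lower sum with DRP-104 in the other table, where Dcn, Lum, Pdgfrb, Fap and Acta2 overlapped between the groups. Col1a1, Col1a2, Col3a1 and Pdgfra did not. In the FPKM table fibroblast markers summed to 1043 to 3017 FPKM with DRP-104 and to 784 to 1271 FPKM with vehicle. Their part in the member values was not tested.

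The 8 genes also kept a different balance in tumors than in culture, given here as RPKM levels without a test. Cldn3 was at 9.17 ± 4.11 RPKM in vehicle tumors against 0.220 ± 0.116 RPKM in control cells, and Cldn4 at 18.9 ± 12.8 against 1.00 ± 0.204 RPKM. Gjb1, at 4.90 ± 3.09 RPKM, and Ocln, at 4.25 ± 1.23 RPKM, had vehicle tumor means close to those of control cells. Tjp3 was at 4.60 ± 2.51 RPKM and Gjb2 at 0.593 ± 0.334 RPKM. The order by mean in vehicle tumors was Tjp1 (25.4 ± 3.90 RPKM), Cldn7 (22.7 ± 8.98 RPKM), Cldn4, Cldn3, Gjb1, Tjp3, Ocln and Gjb2. In that order Cldn3 and Gjb1 differed by more than either SD, as did Ocln and Gjb2, and the other neighbors lay within the larger of their SDs. In DRP-104 tumors the means were 28.5 ± 4.55 RPKM for Tjp1, 28.1 ± 20.9 for Cldn7, 16.3 ± 3.14 for Cldn3, 14.1 ± 7.71 for Cldn4, 13.9 ± 14.8 for Tjp3, 9.71 ± 9.75 for Gjb1, 7.84 ± 4.93 for Ocln and 0.418 ± 0.0582 for Gjb2. The tumors hold host pancreas and stroma, whose part in these levels was not tested.

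**Figure D4:**
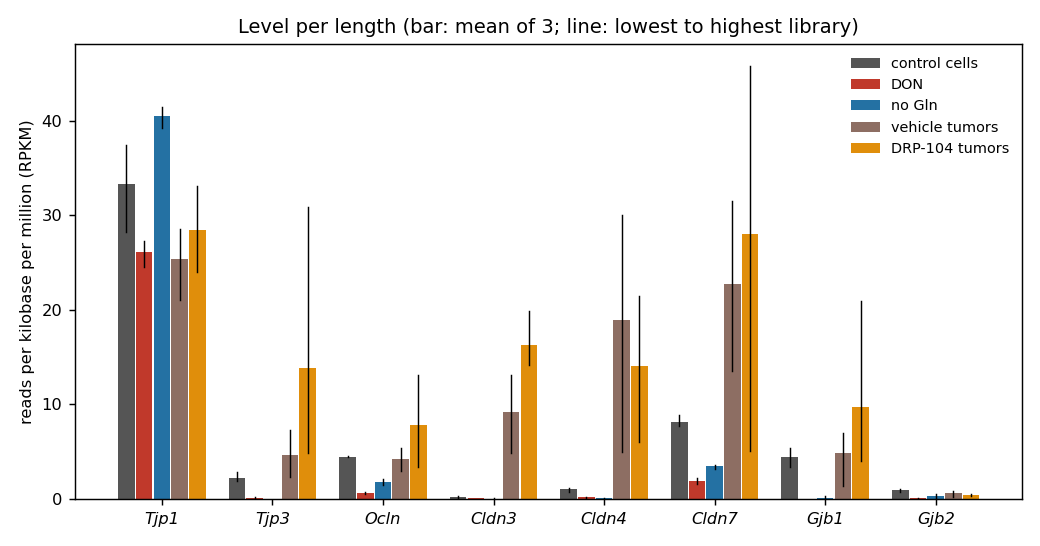
Level of the 8 junction genes per length, in RPKM, in the 5 groups. Bars are means of 3 libraries and lines run from the lowest to the highest library, so that the long lines of Tjp3, Cldn7 and Gjb1 in DRP-104 tumors show how far single tumors lay apart. Cldn3 and Cldn4 were at or under 1.00 RPKM in control cells and at 9.17 and 18.9 RPKM in vehicle tumors.

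Genes with the profile most like that of Tjp3 over the 5 group means, by the root-mean-square difference of centered log2(RPM + 1) among 12047 genes, were Sema4g (0.15), Cybb (0.29) and Prom1 (0.37). Sema4g, a semaphorin, was at 11.4 RPM in control cells, 0.960 after DON, 1.14 without Gln, 25.6 in vehicle and 70.8 RPM in DRP-104 tumors, and Tjp3 at 6.64, 0.297, 0.0467, 13.9 and 41.9 RPM. For Gjb1 the nearest were Cblc (0.13), Bcam (0.21) and Hpse (0.23). Cblc, a ubiquitin ligase of the Cbl family, was at 14.5, 1.59, 1.52, 18.3 and 32.9 RPM, and Gjb1 at 7.06, 0.0205, 0.209, 7.77 and 15.4 RPM. Tjp3 ranked 137 among the neighbors of Gjb1. These profiles are means over the same 15 libraries and are a description. Adding 1 RPM flattens values near 0, so the likeness hides that Tjp3 and Gjb1 fell by larger ratios in culture than Sema4g and Cblc. In DRP-104 tumors Tjp3 ranged from 14.7 to 93.4 RPM and Gjb1 from 6.30 to 33.2 RPM, with tumor 3 the highest for both. The part of that tumor in the likeness was not tested.

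Other junction genes were taken from fixed lists, chosen with earlier results of these data known. In DON-treated cells, 31 of 37 other tight junction genes in the tables were tested, of which 21 fell, 5 rose and 5 were not called by limma, with a median log2 difference of -1.04 against 0.023 over all genes (34.7% of all genes were called lower and 33.3% higher). Without Gln, 13 of the 31 fell, 11 rose and 7 were not called, with a median of -0.051 against 0.0059 over all genes (34.9% lower and 34.5% higher). Cldn2, a pore-forming claudin, fell by 3.41 on the log2 scale after DON and fell by 3.77 without Gln. Marveld2 (tricellulin), which closes the corners where 3 cells meet, fell by 1.87 after DON and fell by 2.01 without Gln. Cldn6 fell by 2.81 after DON. Cldn12 rose by 0.81 after DON and 1.08 without Gln, Amotl2 by 0.83 and 1.00, and Tjap1 by 0.49 and 0.94. Without Gln, Cgnl1 (paracingulin) fell by 1.34.

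Of 18 other connexins, 6 were tested. After DON 5 fell and 1 was not called, with a median of -1.82, and without Gln 3 fell, 1 rose and 2 were not called, with a median of -0.44. The shares over all genes were 34.7% lower and 33.3% higher after DON, and 34.9% lower and 34.5% higher without Gln. Gjb5 fell by 2.34 after DON and fell by 1.85 without Gln, and Gjc1 fell by 0.43 without Gln. In the direct contrast of DON with no Gln, 3 of the 6 were lower after DON and 3 were not called (32.3% of all genes were lower and 31.0% higher). In that contrast 19 of 31 other tight junction genes were lower and 1 higher, 5 of 11 adherens junction genes lower and 3 higher, 5 of 9 desmosome genes lower and 2 higher, and 8 of 9 regulators lower and 1 higher.

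Adherens junctions and desmosomes were counted against the same background, with 34.7% of all genes called lower after DON and 34.9% without Gln. The shares called higher were 33.3% and 34.5%. Of 11 adherens junction genes tested, 9 fell and 2 were not called after DON (median -1.23), and 9 fell and 2 rose without Gln (median -0.90). Cdh1 (E-cadherin), which is also among the epithelial markers, fell by 1.73 after DON and fell by 1.38 without Gln, and Nectin2 fell by 1.68 and fell by 2.08. Vcl (vinculin) fell by 1.56 after DON, and Jup (plakoglobin) fell by 2.13 without Gln. Of 9 desmosome genes tested, all 9 fell after DON (median -1.97), and 7 fell and 2 were not called without Gln (median -0.84). Ppl (periplakin) fell by 2.93 after DON and fell by 2.98 without Gln. Pkp2 (plakophilin) fell by 3.02 and Dsp (desmoplakin) fell by 2.05 after DON, and Evpl (envoplakin) fell by 1.90 and Pkp3 fell by 1.32 without Gln.

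**Figure D5:**
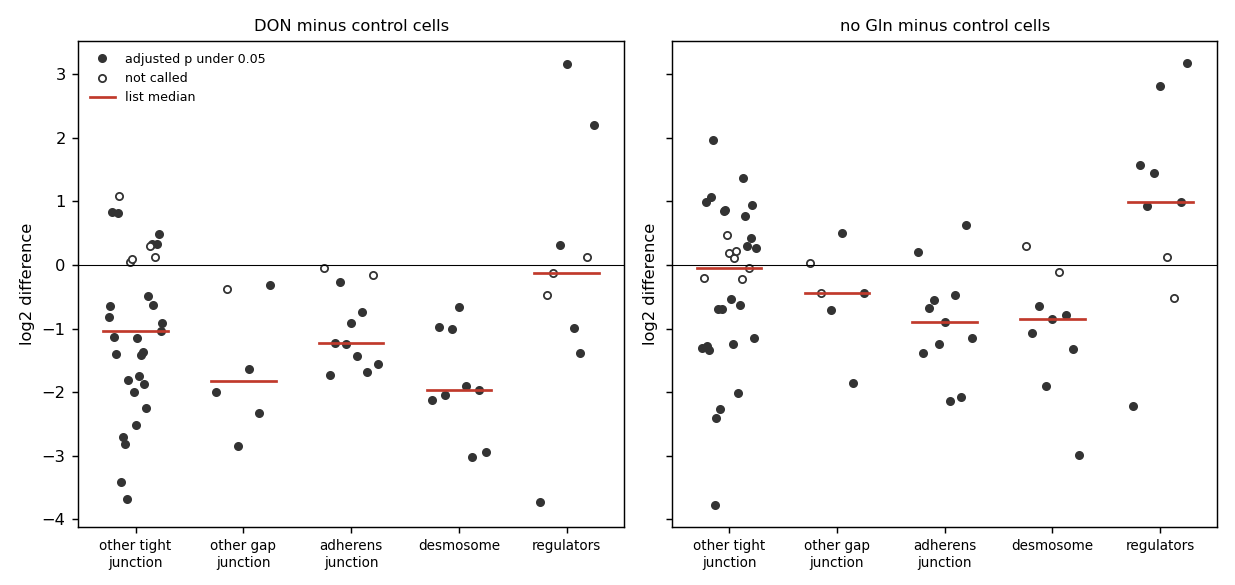
Log2 differences of genes in 5 junction-related lists after DON (left) and without Gln (right), against the same 3 control libraries. Each point is a gene, filled where its limma adjusted p is under 0.05, and red lines are list medians, which after DON were -1.04, -1.82, -1.23, -1.97 and -0.13 from left to right. All 9 tested desmosome genes lie below 0 after DON, while Snai2 and Zeb2 are the highest points of the regulator list in both panels.

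Among known regulators of epithelial junction genes, 9 of 15 were tested. After DON 3 rose, 3 fell and 3 were not called (median -0.13), and without Gln 6 rose, 1 fell and 2 were not called (median 1.00). Of all genes tested, 33.3% were called higher and 34.7% lower after DON, and 34.5% higher and 34.9% lower without Gln. The regulator counts after DON thus lay near the share of all genes. Snai2 (Slug), a repressor that binds E-boxes, rose by 3.16 after DON (SE 0.112), from a mean of 254 to 2282 normalized counts, and by 2.82 without Gln (SE 0.111). Zeb2, a repressor with the same kind of target, rose by 2.21 (SE 0.178) and by 3.17 (SE 0.161). Elf3, an epithelial Ets factor, fell by 3.72 after DON (SE 0.144) and fell by 2.21 without Gln (SE 0.111). Klf5 rose by 0.32 and by 1.44. In tumors no gene of any of the 5 lists was called, and the list medians lay between -0.21 and 0.48. Snai2, Zeb2 and Elf3 were named as the largest changes of a list chosen with results known, so no p is given for them. A link between these regulators and the junction genes was not tested.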

How the data were processed

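Expression of the 8 junction genes was analyzed in 15 libraries, 5 groups of 3, grouped by the labels. The authors extracted RNA with TRIzol and columns, and had library preparation, HISAT2 alignment and DESeq2 analysis done by Novogene. The submitters' processing notes also name STAR 2.5, CASAVA and GRCm39, without roles, but gene coordinates in the FPKM table match GRCm38 (GENCODE M21). The counting tool and use of strand are not given in the sources used here, so reads of overlapping genes could be shared.

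The values deposited for each of the 3 comparisons are a signal made from counts, in which the authors divided every library by its own DESeq2 size factor, estimated table by table. The deposited FPKM values are normalized by the authors for gene length and library size. Gene coordinates, lengths and names deposited in the tables were used for identity. In both culture tables the control columns carry the heading given to vehicle tumors in the labels. They were taken as control cells because the tables set control against treated cells, and they hold near to no islet, acinar or fibroblast RNA. Columns of fold changes and p-values were not used.

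Dividing by the worth of 1 read in each column (tolerance 0.0051) gave whole reads for at least 99.9946% of values, and the recovered control reads were the same in both culture tables for 55291 genes. Read numbers from 1 to 20 were even for 69.6% to 72.7% of genes in culture libraries and for 41.9% to 46.5% in tumors. Levels are recovered reads scaled to 1 M per library (RPM) and, where said, per kilobase of the deposited gene length. Intervals of count ratios are exact 95% binomial intervals on read pairs, and cover counting error only.

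limma 3.58.1 (lmFit, eBayes with trend, R 4.3.3) was run on log2(value + 1) for all genes with a mean of at least 10 (FPKM at least 0.5), p-values were adjusted by Benjamini-Hochberg over all genes tested, and calls made under 0.05. The contrast of DON with no Gln used recovered reads, with median-of-ratios size factors shared by 9 libraries. Fold changes on this scale understate those of low genes. The fits were tested on simulated data with few changed genes and 1 spread setting for all genes of a comparison. In the culture data many more genes were called, so that setting differs from them. Alternatives were edgeR 4.0.16 and DESeq2 1.42.0 on recovered reads, other pseudocounts, filters, scalings and thresholds, a replicate block, the FPKM table and leaving out each library.

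Members and lists were chosen with earlier results of these data known. Named genes are the members, the 3 largest rises and falls in each list among genes called in both culture comparisons with a mean of at least 100, and the 3 genes most like Tjp3 and Gjb1. Some genes and alleles that this rule or the labels name are not reported here. Promoter windows are from RefSeq. Protein sequences were not used here. Python 3.11.15, pandas 2.3.3, scipy 1.17.1 and matplotlib 3.10.9 handled tables and plots.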

Additional observations from a re-analysis of the deposited data

Results flagged for a closer look

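For 5 junction genes limma called a difference between the effect of DON and that of Gln withdrawal, on 9 culture libraries scaled together. The genes were chosen in these libraries, so the choice is not independent of this contrast. The effect of DON minus that of Gln withdrawal on the log2 scale was -0.64 for Tjp1, -1.52 for Ocln and -0.85 for Cldn7, all lower after DON. It was -2.35 for Gjb2 and 2.06 for Tjp3, which are given as a description only. Gjb2 rests on 10 reads after DON and Tjp3 on 28 and 4 reads, and Tjp3 was chosen for its fall in these libraries. Tjp3 passed the filter through the control libraries alone, and Gjb2 had a mean under 10 normalized counts after DON. For each of the 5 genes the 3 libraries of 1 treatment did not overlap with those of the other, as was the case for 71.7% of all genes. The share of all genes called in this contrast was 63.3%, so nothing is read from the number of members.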

How the results depend on the processing

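In culture, the log2 differences of the 7 members fitted kept their direction under the alternatives run, and Cldn3, under the filter, has no such value. Those of low genes moved most: Gjb1 after DON ranged from -8.51 (DESeq2) to -5.40 (pseudocount 5), and Tjp3 without Gln from -7.26 to -5.06. The count of genes called in tumors was 0 by limma under each of its settings and by edgeR, but 59 by DESeq2, and the cause was not tested. No member was called there under any alternative. Directions in tumors were not stable. With the FPKM table the difference turned to -0.27 for Tjp1, -0.38 for Ocln, 2.07 for Cldn4, 0.60 for Cldn7 and -0.55 for Gjb1. Cldn7 turned to 0.34 with edgeR and 0.33 with DESeq2. Leaving out single tumors moved Cldn4 between -1.05 and 0.31 (0.31 without DRP-104 tumor 3, 0.29 without vehicle tumor 2, 0.043 without vehicle tumor 3), Cldn7 between -0.69 and 0.91 (0.91 without DRP-104 tumor 3, 0.20 without vehicle tumor 2) and Gjb2 between -0.86 and 0.039 (0.039 without vehicle tumor 1, 0.011 without vehicle tumor 2).

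Replicate numbers did not pair the samples, as deviations of same-numbered libraries correlated between -0.36 and 0.071. With the number as a replicate block, limma called 9216 genes after DON, 9056 without Gln, 8456 between DON and Gln-free cells and 0 in tumors, with 5 and 0 members called in the last 2 comparisons. Counting limits Gjb1 after DON and Tjp3 and Cldn3 without Gln, which rest on 2 to 4 reads.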
